A study of Mus musculus with 36 samples.

Results

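The acute phase plasma proteins are secreted proteins whose blood levels rise with inflammation, infection or tissue injury. The genes examined were *Saa1*, *Saa2*, *Saa3*, *Orm1*, *Orm2*, *Orm3*, *Lcn2*, *Hp*, *Hpx* and *Apcs*, taken by gene name from the deposited count table. All 10 were found among the 54532 genes of the table, and all 10 were among the 17994 genes tested, for which the 36 libraries together held 100 counts or more. Livers came from male mice aged 2 to 3 months of the line B6.129S1-Thrbtm1Df/J, bred on a C57BL/6NCrl background. The mice were fed chow and kept under 12 h of light and 12 h of darkness. The genotypes compared were THRB+/- controls (labelled WT, here THRBWT) and THRB-/- knockouts (THRBKO), with 3 mice of each at ZT2, 6, 10, 14, 18 and 22, where ZT0 is lights on. The knockout allele (Thrbtm1Df) was germline and affected both THRB isoforms in the whole body, and the controls carried 1 copy of it. The labels give the mice of a group the letters a, b and c and do not say what a letter stands for. In the numbers of the sample descriptions, all 12 mice of letter a come before every mouse of b and c.

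When interleukin-6 reaches a hepatocyte, it acts through the gp130 receptor and STAT3, and interleukin-1 acts through NF-kB. Both raise C/EBP beta and C/EBP delta, and together these factors switch on acute phase genes in the liver. The serum amyloid A proteins (*Saa1*, *Saa2*, *Saa3*) travel on high-density lipoprotein, the orosomucoids (*Orm1*, *Orm2*, *Orm3*) carry lipophilic ligands, and lipocalin 2 (*Lcn2*) binds iron-loaded siderophores. Haptoglobin (*Hp*) captures free haemoglobin, hemopexin (*Hpx*) captures free haem, and serum amyloid P (*Apcs*) is the pentraxin that takes the place of C-reactive protein in the mouse acute phase response. In the mouse the *Saa* genes lie together on chromosome 7 and the *Orm* genes together on chromosome 4.

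The 250 bases before the gene start were read from RefSeq (GRCm38.p6) for 8 of the 10 genes, all but *Orm1* and *Hp*. The RefSeq start of *Saa2*, *Saa3*, *Lcn2* and *Hpx* lies inside the gene as deposited. The windows are shown for 6 of the 7 members that hold the motif marked here. Capitals mark exact matches, on either strand, to the C/EBP element TTGCNNAA. It was the only motif searched that most of the 8 windows held.
Saa1, chr7:46742981-46743230, minus strand: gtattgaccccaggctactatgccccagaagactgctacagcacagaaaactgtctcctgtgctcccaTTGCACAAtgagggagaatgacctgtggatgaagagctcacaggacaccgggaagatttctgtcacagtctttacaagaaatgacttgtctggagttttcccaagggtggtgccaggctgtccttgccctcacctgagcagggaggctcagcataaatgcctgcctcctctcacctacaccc
Saa2, chr7:46751583-46751832, plus strand: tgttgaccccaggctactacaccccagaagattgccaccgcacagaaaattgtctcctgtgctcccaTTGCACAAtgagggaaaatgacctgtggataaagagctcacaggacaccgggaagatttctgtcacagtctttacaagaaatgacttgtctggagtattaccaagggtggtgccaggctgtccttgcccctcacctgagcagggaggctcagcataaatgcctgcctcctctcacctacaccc
Saa3, chr7:46715677-46715926, minus strand: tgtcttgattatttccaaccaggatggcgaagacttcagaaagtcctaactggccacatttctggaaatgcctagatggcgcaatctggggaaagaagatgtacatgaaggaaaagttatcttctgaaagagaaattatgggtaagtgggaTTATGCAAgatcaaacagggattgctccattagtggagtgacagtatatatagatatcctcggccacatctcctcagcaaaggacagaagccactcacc
Orm2, chr4:63362199-63362448, plus strand: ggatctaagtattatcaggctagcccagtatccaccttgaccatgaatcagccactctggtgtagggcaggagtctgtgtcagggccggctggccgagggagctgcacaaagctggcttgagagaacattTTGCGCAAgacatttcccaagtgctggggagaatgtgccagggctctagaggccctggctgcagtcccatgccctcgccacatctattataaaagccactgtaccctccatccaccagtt
Orm3, chr4:63355908-63356157, plus strand: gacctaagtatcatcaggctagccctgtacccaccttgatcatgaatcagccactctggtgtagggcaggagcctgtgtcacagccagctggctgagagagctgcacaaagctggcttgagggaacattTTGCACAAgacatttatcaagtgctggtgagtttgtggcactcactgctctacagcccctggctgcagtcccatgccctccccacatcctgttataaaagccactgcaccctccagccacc
Lcn2, chr2:32387740-32387989, minus strand: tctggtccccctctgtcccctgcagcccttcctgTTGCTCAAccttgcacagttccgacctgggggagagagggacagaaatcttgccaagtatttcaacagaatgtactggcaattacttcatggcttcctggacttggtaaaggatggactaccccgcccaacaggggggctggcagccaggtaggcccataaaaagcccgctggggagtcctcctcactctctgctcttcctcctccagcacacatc

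A C/EBP element was found in 7 of the 8 windows, all but that of *Apcs*, and in 9.56% of the 32851 mouse promoter windows of the same length. In *Saa1* and *Saa2* it starts 182 and 183 bases before the gene, in *Orm2* and *Orm3* 120 and 121 bases before, and in *Saa3* 99 bases before. The STAT element TTCNNNGAA was found in 1 of these windows, that of *Apcs*, against 7.02% of all windows, and the NF-kB element GGANTTTCC in none of them, against 1.07% of all. The hexamer AGAACA that the glucocorticoid receptor recognises was present in *Orm2* and *Apcs* (16.1% of all windows), and the thyroid hormone receptor hexamer AGGTCA in *Saa1*, *Saa2* and *Hpx* (14.02% of all). These are matches of letters, and binding was not measured. Each motif was searched as a single pattern of fixed length. Sites of other letters or lengths, for NF-kB as for the rest, were not looked for. The windows of *Saa1* and *Saa2* were 95.6% identical over 249 aligned bases and those of *Orm2* and *Orm3* 89.4% identical over 245. The C/EBP matches within each of these pairs are therefore not independent. The transcripts are close relatives as well. Coding sequences of *Saa1* and *Saa2* were 95.1% identical over 366 bases, and those of *Orm1*, *Orm2* and *Orm3* between 87.6% and 89.9%, so reads from one paralog may have been counted for another or left out.

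The libraries held between 29063273 and 42530551 counts in genes. Levels are given as CPM, counts scaled to a common library size, with TMM factors between 0.941 and 1.06. *Thrb* itself, which encodes the receptor, had between 24.3 and 38.5 CPM in THRBWT livers (median 27.9) and between 26.2 and 37.7 CPM in THRBKO livers (median 31.9). Its total count did not separate the genotypes and so gives no check of the labels, and reads from the altered part of the gene were not examined here. The 6 hepatocyte markers were all expressed and summed to between 58905 and 93727 CPM, while the 4 pancreas and 5 adipocyte markers fell below the filter in every case. In bulk liver RNA, fewer cells of a type and less RNA per cell cannot be told apart.

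Levels of the 10 genes covered more than 3 orders of magnitude. Per kilobase of the deposited gene length, *Hpx* stood highest, at 2475 ± 405 CPM per kb in THRBWT and 2443 ± 385 in THRBKO livers (SD, n = 18 each). *Hp* followed at 1749 ± 365 and 1567 ± 226, *Orm1* at 878 ± 159 and 781 ± 177, and *Apcs* at 170 ± 58.0 and 153 ± 52.0 CPM per kb. The remaining 6 genes lay far below. They were *Saa1* (19.6 ± 20.6 and 12.4 ± 7.96 CPM per kb), *Orm2* (12.2 ± 12.6 and 14.3 ± 14.9), *Saa2* (7.31 ± 7.83 and 6.21 ± 4.76), *Orm3* (3.84 ± 3.06 and 4.90 ± 4.39), *Saa3* (2.76 ± 2.91 and 2.08 ± 0.863) and *Lcn2* (1.09 ± 0.861 and 1.26 ± 0.912). Neighbours among these 6 differed by less than the larger of their SDs. The deposited length of the *Saa* genes includes retained introns, which lowers their values per kb. That of *Lcn2* is also long, at 2623 bases with 815 coding bases, beside 773 bases for *Orm3*. In CPM these 2 genes were close, at 3.08 and 3.38 over all mice.

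**Figure D1:**
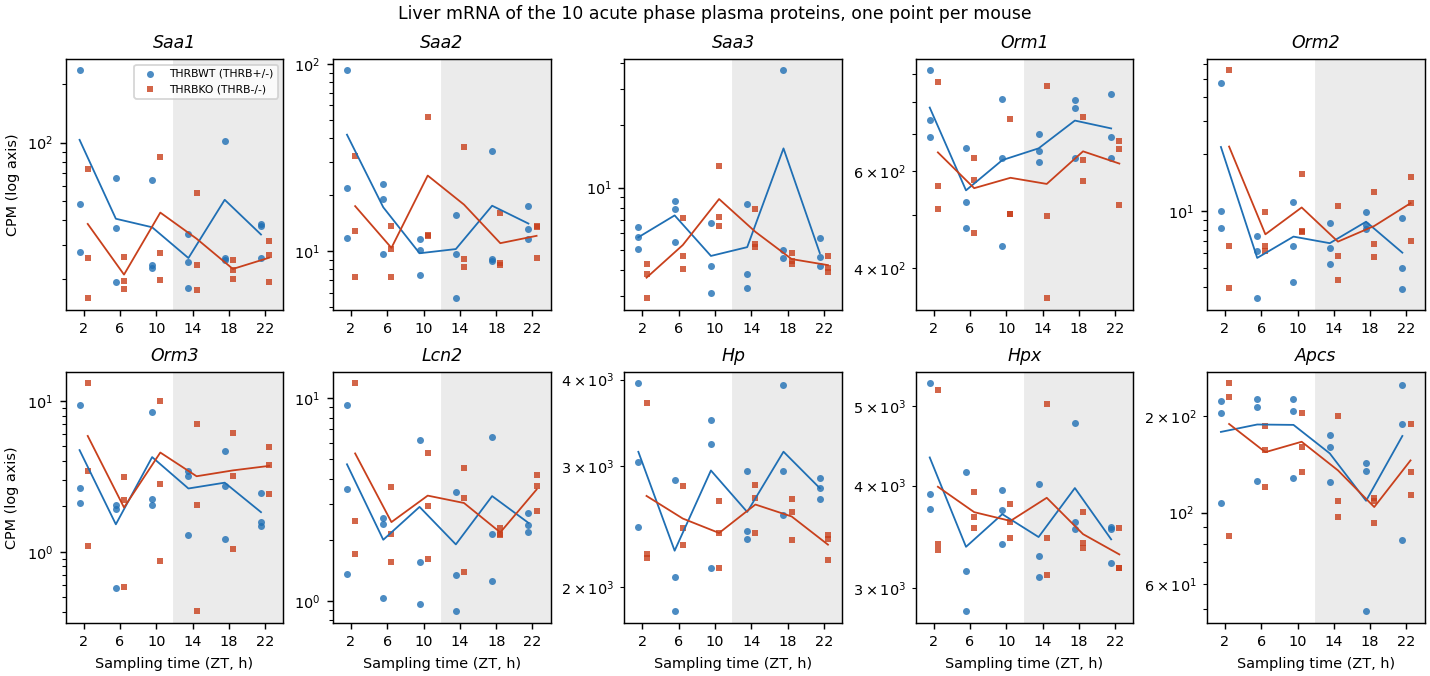
CPM (log axis) of each gene against sampling time (ZT in hours) in THRBWT (blue circles) and THRBKO livers (red squares), 1 point per mouse, with lines through the group means and the dark phase shaded. Single mice stand high, such as THRBWT mouse ZT2a at 234 CPM of *Saa1* and THRBWT mouse ZT18b at 36.9 CPM of *Saa3*.

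The question first put to these genes was whether loss of THRB changed their level. None of the 10 passed the test of genotype with sampling time in the model (edgeR quasi-likelihood test, Benjamini-Hochberg adjustment over all tested genes). In the same test 171 of 17994 genes passed, 0.950% of all, of which 91 were higher and 80 lower in THRBKO livers. None of the 10 reached an unadjusted p under 0.05 either, against 2169 genes, 12.1% of all. With DESeq2 none of the 9 members given an adjusted p passed, and *Saa3* was given none. The median log2 difference of the 10 (THRBKO minus THRBWT) was -0.14, against -0.0011 over all genes.

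*Saa1* ranged from 18.1 to 234 CPM in THRBWT (median 30.8) and from 15.9 to 84.6 CPM in THRBKO livers (median 24.5). Its log2 difference was the largest of the 10 at -0.57 (SE 0.28, 95% interval -1.15 to 0.012, adjusted p = 0.43), and it shrank to -0.33 without THRBWT mouse ZT2a. *Saa2* ranged from 5.59 to 92.3 CPM (median 11.7) and from 7.23 to 51.8 CPM (median 12.1), a log2 difference of -0.14 (SE 0.31, adjusted p = 0.91) that turned to 0.099 without the same mouse. *Saa3*, which macrophages and adipocytes also make, ranged from 3.11 to 36.9 CPM (median 5.26) in THRBWT and from 2.91 to 12.7 CPM (median 4.65) in THRBKO livers (-0.32, SE 0.24, adjusted p = 0.64), a difference of -0.036 without THRBWT mouse ZT18b and of -0.086 without letter b. For each of the 3 *Saa* genes the ranges of the genotypes overlapped over nearly the whole of the knockout range.

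*Orm1* had between 439 and 913 CPM in THRBWT (median 676) and between 353 and 870 CPM in THRBKO livers (median 577), with a log2 difference of -0.16 (SE 0.093, adjusted p = 0.50). The estimates for the minor paralogs and *Lcn2* were above 0 and turned on single mice. *Orm2* ranged from 3.48 to 47.4 CPM (median 7.72) and from 3.93 to 55.4 CPM (median 7.39), with a log2 difference of 0.28 (SE 0.26, adjusted p = 0.73). *Orm3* ranged from 0.579 to 9.42 CPM (median 2.17) and from 0.403 to 13.1 CPM (median 2.97), with 0.38 (SE 0.34, adjusted p = 0.73). *Lcn2* ranged from 0.886 to 9.23 CPM (median 2.27) and from 1.39 to 11.8 CPM (median 2.63), with 0.21 (SE 0.28, adjusted p = 0.84). The 95% intervals were wide for these low genes, from -0.32 to 1.08 for *Orm3* and from -0.37 to 0.78 for *Lcn2*. Without THRBKO mouse ZT2a the differences of *Orm2*, *Orm3* and *Lcn2* were 0.067, 0.20 and 0.033. Without THRBWT mouse ZT2a that of *Orm2* was 0.47, and without letter a *Orm2* was at 0.11 and *Orm3* at 0.055.

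The haem scavengers were held in narrow ranges. *Hp* lay between 1846 and 3948 CPM in THRBWT (median 2826) and between 2135 and 3700.5 CPM in THRBKO livers (median 2397), a log2 difference of -0.15 (SE 0.080, 95% interval -0.31 to 0.012, adjusted p = 0.46). *Hpx* lay between 2810 and 5329 CPM (median 3584) and between 3111 and 5228 CPM (median 3498). Its interval of -0.16 to 0.12 around -0.016 bounds any genotype difference more tightly than for the other members. *Apcs* lay between 49.2 and 249 CPM (median 167) and between 84.3 and 252 CPM (median 134), with a log2 difference of -0.15 (SE 0.15, adjusted p = 0.77). At single sampling times, the 3 THRBKO mice lay entirely above or below the 3 THRBWT mice in 4 of 60 combinations of member and time, against 9.96% of all combinations of gene and time. They were *Saa2* at ZT10 and *Lcn2* at ZT22 (higher in THRBKO) and *Saa3* at ZT2 and *Hp* at ZT22 (lower).

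The study also asked about daily rhythms, which were tested here with sine and cosine terms of 24 h in each genotype. In THRBWT livers 1 of the 10 genes passed, against 33.0% of all tested genes, and in THRBKO livers 1 of 10, against 28.9%. In THRBWT this was *Saa2*, with means of 41.9 ± 43.9 CPM at ZT2, 17.1 ± 6.79 at ZT6, 9.73 ± 2.12 at ZT10, 10.2 ± 5.02 at ZT14, 17.5 ± 14.7 at ZT18 and 14.03 ± 2.99 at ZT22 (SD, n = 3 each). The fitted amplitude was 0.86 on the log2 scale with a peak at ZT1.0 (adjusted p = 0.045, edgeR quasi-likelihood test). The ZT2 mean was carried by mouse a, at 92.3 CPM beside 21.6 and 11.7 CPM. Without that mouse the amplitude was 0.37 (adjusted p = 0.40), and the call was lost when any one of 11 of the 18 mice was left out. In THRBKO livers the *Saa2* amplitude was 0.37 (adjusted p = 0.52).

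The rhythmic gene in THRBKO livers was *Saa3*. The 3 mice had 2.91, 3.81 and 4.27 CPM at ZT2, 7.15, 4.65 and 4.02 at ZT6, and 12.7, 7.19 and 6.54 at ZT10. Levels then declined from 5.18, 7.84 and 5.31 CPM at ZT14 to 4.42, 4.29 and 4.82 at ZT18 and 4.09, 3.90 and 4.66 at ZT22. All mice at ZT10 thus exceeded all mice at ZT2, ZT18 and ZT22. The fitted amplitude was 0.54 on the log2 scale with a peak at ZT11.04 (adjusted p = 0.0030), and with each of the 18 mice left out in turn the adjusted p stayed between 0.0023 and 0.0073. Without the 6 mice of letter b it was 0.057. In THRBWT livers *Saa3* had an amplitude of 0.45 and a fitted peak at ZT18.7 (adjusted p = 0.37), where the mean of 15.5 ± 18.5 CPM at ZT18 came from 5.02, 36.9 and 4.55 CPM.

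Whether the genotype difference varied with sampling time was tested with the 5 interaction terms. No gene passed after adjustment (0 of 17994, 0%, with edgeR, and 0 with DESeq2). With edgeR 484 genes, 2.69% of all, had an unadjusted p under 0.05. Of the members, *Saa3* alone lay under 0.05 before adjustment (adjusted p = 0.9999, edgeR quasi-likelihood test). The difference between genotypes in the 24 h terms themselves gave adjusted p = 1 for *Saa2* and for *Saa3*, so neither rhythm was shown to be particular to its genotype. *Hp* (amplitudes 0.11 and 0.013) and *Hpx* (0.074 and 0.064) were the flattest members over the day in both genotypes.

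Mice that shared genotype and time of day differed widely in several of these genes. Log2 CPM minus the mean of the mouse's own group of 3 gave each mouse a deviation, and the SD of these deviations ranked each gene among all 17994. *Orm3* was the 85th most variable gene (SD 1.24 on the log2 scale), *Lcn2* the 260th (0.94), *Saa2* the 365th (0.88), *Saa1* the 378th (0.88) and *Orm2* the 411th (0.86), against a median SD of 0.26. *Saa3* (0.62) and *Apcs* (0.55) were also above the median, at ranks 2729 and 3720. *Orm1* (0.32, rank 7684), *Hp* (0.25, rank 9151) and *Hpx* (0.22, rank 10190) were ordinary. Low counts add sampling noise to such an SD, and the smallest counts of *Orm3* and *Lcn2* were 18 and 31.

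The extremes fell on few animals. THRBWT mouse ZT2a had the highest *Saa1* (234 CPM), *Saa2* (92.3), *Orm1* (913), *Hp* (3948) and *Hpx* (5329) of all 36 mice, beside 9.23 CPM of *Lcn2*, 47.4 of *Orm2* and 9.42 of *Orm3*. THRBKO mouse ZT2a had the highest *Orm2* (55.4 CPM), *Orm3* (13.1) and *Lcn2* (11.8), beside 73.5 CPM of *Saa1* and 3700.5 of *Hp*. In both mice *Saa3* was not raised, at 5.04 and 2.91 CPM, and the second is the lowest *Saa3* of the study. THRBWT mouse ZT18b shared the high *Saa1* (102 CPM), *Lcn2* (6.45), *Hp* (3932) and *Hpx* (4770), and differed from these mice in the highest *Saa3* (36.9 CPM) and in 1.22 CPM of *Orm3*, below the group mean. THRBKO mouse ZT10a combined 84.6 CPM of *Saa1*, 51.8 of *Saa2* and 12.7 of *Saa3*, and THRBKO mouse ZT14b had 55.3 CPM of *Saa1* and 35.8 of *Saa2* with 2.04 CPM of *Orm3*.

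**Figure D2:**
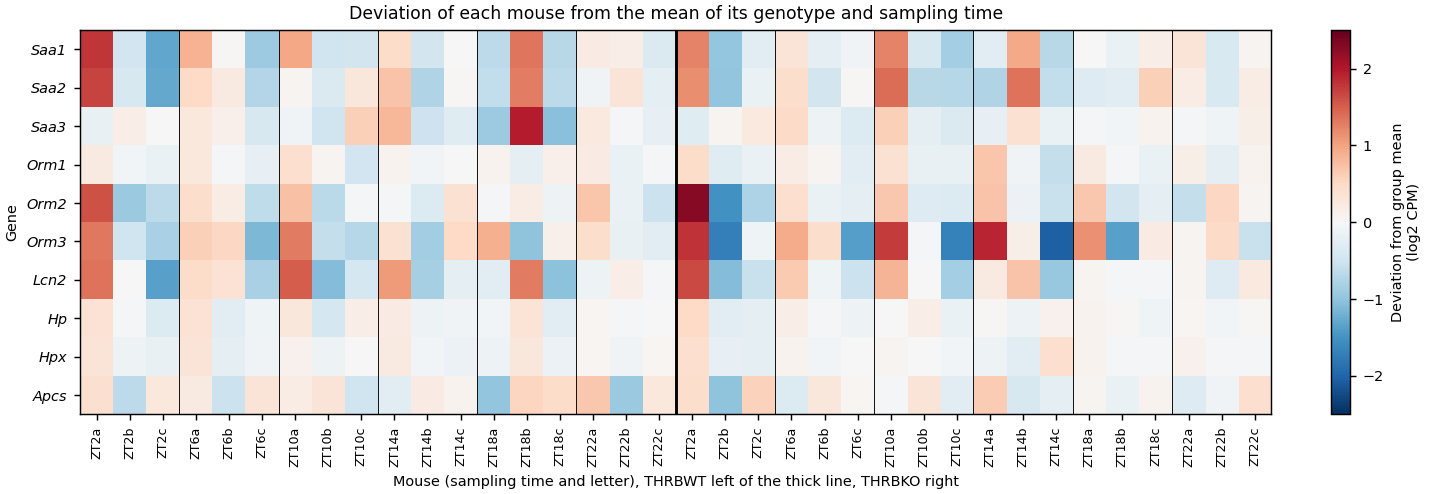
Deviation of each mouse (columns, by sampling time and letter) from the mean of its genotype and sampling time, in log2 CPM, for the 10 genes (rows), with THRBWT left and THRBKO right of the thick line. Columns ZT2a in both genotypes are high for *Saa1*, *Saa2*, *Orm2*, *Orm3* and *Lcn2* together, and ZT18b in THRBWT is high for the *Saa* genes and low for *Orm3*.

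Members were then compared in pairs over the 36 mice, with group means subtracted and permutation p from 100000 reorderings within the 12 groups (two-sided, Benjamini-Hochberg over 45 pairs, smallest possible p 1e-05). Of the 45 pairs, 43 had a positive Pearson's r, with a median of 0.48, and 22 passed after adjustment. Spearman's rho also gave 22. The tightest pair was *Saa1* with *Saa2*, at r = 0.92 and rho = 0.88 (permutation p = 1e-05 for each, adjusted p = 9e-05 and 0.00011). Without the 2 mice farthest from the median of *Saa1*, THRBWT ZT2a and ZT18b, r was 0.89. *Saa1* with *Lcn2* followed at r = 0.91 and rho = 0.89 (permutation p = 1e-05 for each, adjusted p = 9e-05 and 0.00011), and r was 0.89 without the same mice. These genes lie on different chromosomes, 7 and 2. Among all 17993 other tested genes, *Saa2* ranked first and *Lcn2* second by r with *Saa1*, and *Saa1* and *Saa2* ranked first and second with *Lcn2*.

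A second tight set was formed by the scavengers *Hp* and *Hpx*, at r = 0.84 and rho = 0.85 (permutation p = 1e-05 for each, adjusted p = 9e-05 and 0.00011, r = 0.83 without 2 mice). Each was the gene most like the other among all tested. *Lcn2* joined the sets, with r = 0.77 and rho = 0.69 against *Hp* (permutation p = 0.00035 and 0.00078, adjusted p = 0.0020 and 0.0039, r = 0.71 without 2 mice). The orosomucoids were also linked to each other, but they were not a separate set. *Orm2* had r = 0.64 with *Orm1*, below its r of 0.71 with *Lcn2*. *Orm1* and *Orm3* had r = 0.82 and rho = 0.79 (permutation p = 4e-05 for each, adjusted p = 0.00030 and 0.00036, r = 0.77 without 2 mice), and *Orm2* and *Orm3* had r = 0.76 and rho = 0.79 (permutation p = 1e-05 for each, adjusted p = 9e-05 and 0.00011, r = 0.74 without 2 mice). *Saa1* and *Orm2* had r = 0.70 and rho = 0.67 (permutation p = 0.00088 and 0.00041, adjusted p = 0.0040 and 0.0023, r = 0.67 without 2 mice).

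2 genes passed with few others or none. *Apcs* passed with none of the other 9, with r between 0.0075 (*Saa3*) and 0.36 (*Orm2*). *Saa3* passed with *Saa2* (r = 0.55, rho = 0.57, permutation p = 0.0047 and 0.0042, adjusted p = 0.015 and 0.014, r = 0.60 without 2 mice) and with *Saa1* (r = 0.48, rho = 0.48, permutation p = 0.023 and 0.018, adjusted p = 0.049 and 0.041, r = 0.45 without 2 mice), and not with the others. Against *Orm1*, *Orm2* and *Orm3* its r was -0.10, 0.062 and -0.014. With *Lcn2* it had r = 0.48 (rho = 0.45, permutation p = 0.029 and 0.033, adjusted p = 0.056 and 0.065), the same size as with *Saa1*, and with *Hp* r = 0.39 and *Hpx* 0.28. Its link to *Saa1* dropped to r = 0.31 without THRBWT mouse ZT18b. A pair that leaned on 1 genotype was *Saa1* with *Hpx*, at r = 0.81 over the 18 THRBWT and 0.25 over the 18 THRBKO mice. The difference between these r values was not tested. Over all 36 mice this pair had r = 0.56, which rose to as much as 0.75 with 1 mouse left out. THRBKO mouse ZT14c had 5034 CPM of *Hpx* with 17.6 CPM of *Saa1*. The number of pairs past the threshold ranged from 15 to 24 when single mice were left out, and it was 15 without THRBKO mouse ZT2a and 15 without THRBKO mouse ZT10a.

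**Figure D3:**
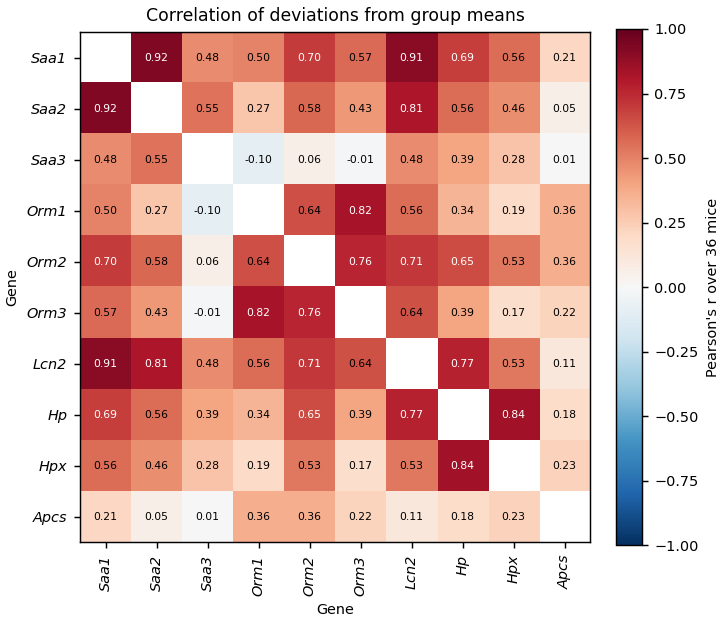
Pearson's r of the deviations from group means for each pair of genes over 36 mice, on a colour scale from -1 to 1. The blocks *Saa1*, *Saa2* and *Lcn2* (0.81 to 0.92) and *Hp* and *Hpx* (0.84) stand out, and the row of *Apcs* stays at or below 0.36. The 3 *Orm* genes have 0.64 to 0.82 among themselves, while *Orm2* has 0.71 with *Lcn2* and 0.70 with *Saa1*.

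The mice at the top of these scales often carried the letter a. With letter added to genotype and sampling time, a comparison chosen after the values were seen, 4 of the 10 genes passed, *Orm1*, *Orm2*, *Orm3* and *Lcn2*, against 5.19% of all genes (edgeR quasi-likelihood test of 2 terms). *Orm1* had 769 ± 88.8 CPM in mice of letter a, 586 ± 75.2 in those of letter b and 573 ± 131 in those of letter c (SD, n = 12 each, log2 differences from a of -0.40 and -0.45, adjusted p = 0.0045). *Orm3* had 6.11 ± 3.51, 2.09 ± 1.09 and 1.94 ± 1.14 CPM (-1.42 and -1.63, adjusted p = 0.0069). *Orm2* had 16.8 ± 16.5, 6.996 ± 3.09 and 6.96 ± 2.35 CPM (-1.01 and -1.05, adjusted p = 0.025), and *Lcn2* had 4.64 ± 3.05, 2.76 ± 1.54 and 1.85 ± 0.856 CPM (-0.71 and -1.27, adjusted p = 0.030). *Saa1* had 60.4 ± 59.0, 35.1 ± 24.8 and 23.3 ± 3.34 CPM (adjusted p = 0.055). When single sampling times were left out, *Orm1* and *Orm3* passed each time. The call of *Orm2* was lost without ZT2, ZT10, ZT14 or ZT18, and that of *Lcn2* without ZT2, ZT6, ZT10 or ZT14.

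Mouse a was the highest of its group of 3 in 11 of 12 groups for *Orm1*, in 10 for *Orm3*, and in 9 each for *Saa1*, *Orm2*, *Hp* and *Hpx*. These 6 of 10 genes reached at least 9 groups, as did 2.95% of all genes. *Apcs*, with 3 groups, and *Saa3*, with 5, did not follow. Over each genotype alone, *Orm3* in letters b and c stayed below a, by log2 differences of -1.31 and -1.18 in THRBWT and of -1.52 and -2.09 in THRBKO livers, but no gene passed in either (unadjusted p under 0.05 for 2165 genes in THRBWT and 1508 in THRBKO livers). Library totals ran from 29063273 to 39913574 counts for letter a, from 30613456 to 40322624 for b and from 30483692 to 42530551 for c. The deviations of *Orm3* and *Orm1* correlated with that of the log2 total at r = -0.52 and -0.50 over the 36 libraries, and the part of depth in the letter difference was not tested.

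**Figure D4:**
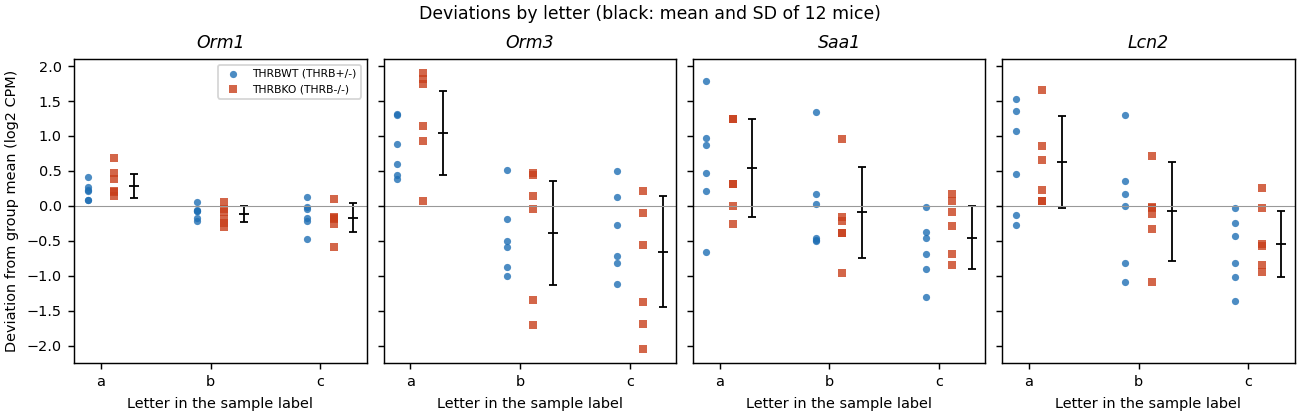
Deviation from the group mean (log2 CPM) of *Orm1*, *Orm3*, *Saa1* and *Lcn2* by the letter in the sample label, 1 point per mouse (blue circles THRBWT, red squares THRBKO), with the mean and SD of 12 mice in black. All 12 mice of letter a lie above 0 for *Orm1* and for *Orm3*.

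Removing the letter means changed the pairs unequally. With deviations from a fit of group and letter, 11 of the 45 pairs passed. The r of *Saa1* with *Saa2* was then 0.93, with *Lcn2* 0.86, and that of *Hp* with *Hpx* 0.79. In contrast, *Saa1* with *Orm1* went from 0.50 to 0.12 and *Orm1* with *Lcn2* from 0.56 to 0.17. Among the orosomucoids, *Orm1* with *Orm2* went from 0.64 to 0.32 and *Orm1* with *Orm3* from 0.82 to 0.59.

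Genes outside the set that moved most like each member were named from 12631 candidates with a mean of at least 1 CPM, by r of the same deviations over 36 mice. For *Saa1* they were *Lgals3* (galectin-3 of macrophages, r = 0.76), *Fgr* (a Src family kinase of myeloid cells, 0.75) and *Lst1* (0.74). For *Saa2* they were *Lst1* (0.73), *Grk2* (0.72) and *Lgals3* (0.71), and for *Lcn2* they were *Lrg1* (an acute phase glycoprotein, 0.78), *Fgr* (0.75) and *Fpr1* (the formyl peptide receptor of phagocytes, 0.75). *Saa3* was most like *Cd14* (the lipopolysaccharide co-receptor, 0.66), *Capg* (a macrophage actin-capping protein, 0.62) and *Chaf1a* (0.62). *Hp* was most like *Lrg1* (0.82), *Fgl1* (a fibrinogen-like hepatokine, 0.81) and *Fbxo4* (0.78), and *Hpx* like *Fgl1* (0.79), *Fbxo4* (0.78) and *Irf2bp1* (0.76). The *Orm* genes kept other company. *Orm1* was most like *Hsd17b10* (0.86), *Mgst1* (a microsomal glutathione transferase, 0.85) and *Lmf1* (the lipase maturation factor, 0.85). *Orm2* was most like *Rasgrp2* (0.73), *Pilrb1* (0.73) and *Mup-ps13* (0.73), and *Orm3* like *Tmem189* (0.81), *Fuca1* (a lysosomal fucosidase, 0.78) and *Mup-ps13* (0.78). *Mup-ps13* (chr4:61534230-61536973) lies on the chromosome of the *Orm* genes (*Orm2* at chr4:63362449-63365878), and its level ran from 0 to 5.46 CPM.

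Immune cell markers were set beside these values. The mean deviation of 6 Kupffer cell markers, all detected, correlated with *Saa1* at r = 0.66, *Lcn2* at 0.67, *Hpx* at 0.59, *Hp* at 0.59 and *Saa2* at 0.57. With *Orm2* r was 0.49, with *Saa3* 0.44, with *Orm3* and *Apcs* 0.37 each, and with *Orm1* 0.24. Their summed level ran from 150 to 474 CPM in THRBWT and from 159 to 306 CPM in THRBKO livers. The top 2 values, 474 and 368 CPM, belonged to THRBWT mice ZT18b and ZT2a, which ranked 2 and 1 from the highest for *Saa1*. THRBKO mouse ZT22b ranked 3 for the sum (306 CPM), but 31 for *Saa1* and 32 for *Hp*. THRBKO mouse ZT14b ranked 34 for the sum (160 CPM), but 7 for *Saa1* and 3 for *Saa2*. Of 10 neutrophil markers 2 passed the filter, *S100a8* and *S100a9*, with a sum between 0.188 and 1.78 CPM in all livers, and *Mpo*, *Elane*, *Ngp*, *Camp*, *Ltf*, *Cxcr2*, *Retnlg* and *Ly6g* did not. The mean deviation of the 2 genes correlated with *Hpx* at r = 0.63, *Hp* at 0.60, *Orm2* at 0.55, *Lcn2* at 0.48 and *Saa1* at 0.47. With the other members r lay between 0.19 (*Orm1*) and 0.45 (*Saa2*). Of 4 monocyte markers 3 were tested, with a sum between 0.761 and 2.66 CPM. Their r with the members lay between -0.059 (*Orm1*) and 0.45 (*Saa2*). The hepatocyte markers, which include *Alb* and *Ttr*, genes also listed as falling in inflammation, had r = -0.26 with *Saa1*. The 3 red cell markers had r = 0.44 with *Saa1*, 0.49 with *Orm1*, 0.39 with *Orm2* and 0.40 with *Orm3*, and the 4 stellate cell markers -0.26, -0.54, -0.42 and -0.49. The markers of B and T cells, cholangiocytes and endothelial cells had r between -0.22 and 0.11 with *Saa1*. The part of these cells in the co-variation was not tested.

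*Apcs* had its own companions. The genes most like it were *Fmn2* (an actin-nucleating formin, r = 0.90), *Ifi202b* (an interferon-inducible DNA sensor, 0.88) and *Ackr1* (a chemokine-scavenging receptor, 0.74). All 3 lie on chromosome 1 near *Apcs* (chr1:172893961-172895041, minus strand, GRCm38), at distances of 1.61, 1.07 and 0.437 Mb. Of the 10 genes most like *Apcs*, 5 lay within 5 Mb of it, where 0.546% of the genes considered lie, while the median r of all 69 genes in that window was -0.043. *Ifi202b* had 0 counts in 4 livers, THRBWT ZT2b, ZT18a and ZT22b and THRBKO ZT2b, which allows at most 0.105 CPM there at 3 counts per library, and between 27 and 132 counts in the other 32. In those 4 livers *Apcs* stood at 107, 49.2, 82.3 and 84.3 CPM and *Fmn2* at 0.850, 0.140, 0.192 and 0.346 CPM. They included the 3 lowest *Apcs* values of the study, and both genotypes were among them.

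**Figure D5:**
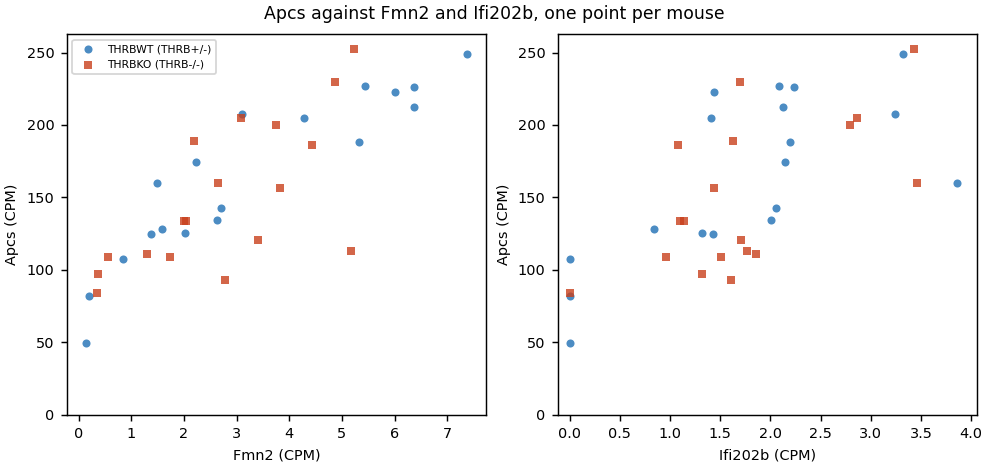
CPM of *Apcs* against CPM of *Fmn2* (left) and of *Ifi202b* (right), 1 point per mouse (blue circles THRBWT, red squares THRBKO), on linear axes. *Apcs* rises with *Fmn2* in both genotypes, and the 4 livers without *Ifi202b* counts lie between 49.2 and 107 CPM of *Apcs*.

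The wider acute phase programme was followed through lists of other genes. Of 21 tested genes outside the set that were listed as positive acute phase genes, 2 were lower and none higher in THRBKO livers (median log2 difference 0.027). Of all genes, 0.950% passed in either direction. *Saa4* had 259 ± 53.5 CPM in THRBWT and 207 ± 36.2 CPM in THRBKO livers (log2 difference -0.32, SE 0.073, adjusted p = 0.018). It was in the list although it is the constitutive serum amyloid A beside *Saa1*. *Itih3*, an inter-alpha-trypsin inhibitor heavy chain, had 740 ± 126 and 611 ± 166 CPM (-0.29, SE 0.075, adjusted p = 0.048), just under the threshold of 0.05. *Serpina3n*, an antichymotrypsin, had 301 ± 36.9 and 339 ± 49.7 CPM (adjusted p = 0.22). In the list 11 genes were rhythmic in THRBWT and 6 in THRBKO livers, against 33.0% and 28.9% of all genes, among them the fibrinogen chains *Fga*, *Fgb* and *Fgg* in both, with amplitudes between 0.30 and 0.54 and peaks between ZT1.8 and ZT3.7. *Steap4*, a metalloreductase, was rhythmic in THRBWT livers (amplitude 0.48, adjusted p = 0.00026) and had an amplitude of 0.10 in THRBKO livers (adjusted p = 0.71), a difference between genotypes that did not pass.

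No gene of the 8 negative acute phase genes, which fall in inflammation, passed for genotype. The nearest was *Serpina6*, the corticosteroid-binding globulin, at 307 ± 136 and 391 ± 156 CPM (log2 difference 0.36, adjusted p = 0.052), rhythmic in both genotypes with peaks at ZT11.3 and ZT12.6. *Ttr* (-0.14, adjusted p = 0.22), *Alb* (0.089, adjusted p = 0.45), *Apoa1* (-0.12, adjusted p = 0.40), *Trf* (-0.10, adjusted p = 0.58) and *Rbp4* (0.040, adjusted p = 0.78) did not pass. Of 23 genes of cytokine signalling none passed for genotype (0.950% of all genes), 9 were rhythmic in THRBWT and 10 in THRBKO livers (33.0% and 28.9% of all genes). *Il6ra*, the interleukin-6 receptor, had amplitudes of 0.73 and 0.56 with peaks at ZT11.9 and ZT11.6, and *Cebpb* amplitudes of 0.48 and 0.40 with peaks at ZT12.3 and ZT10.2. *Nfkbia*, the inhibitor of NF-kB, had 0.50 and 0.31 with peaks at ZT9.0 and ZT9.5, and *Nfkb1* had 0.14 and 0.23. *Tnfrsf1a*, a tumour necrosis factor receptor, passed in THRBKO livers (amplitude 0.20, adjusted p = 0.00053) and not in THRBWT livers (0.12, adjusted p = 0.11), and the difference between genotypes had adjusted p = 1. *Lifr*, the leukaemia inhibitory factor receptor, was nearest to a genotype call (-0.27, adjusted p = 0.26), followed by *Nfkbiz* (0.16, adjusted p = 0.37) and *Il1rap* (0.087, adjusted p = 0.38). The receptors and clearance partners of the members, 6 genes, gave no genotype call. *Cd163*, the haptoglobin-haemoglobin receptor, had 11.01 ± 4.81 and 8.43 ± 1.74 CPM (-0.38, adjusted p = 0.28), and *Hmox1*, which degrades haem, 20.7 ± 4.94 and 21.1 ± 3.62 CPM. *Fpr2*, a receptor for serum amyloid A, had 0.983 ± 0.499 and 0.975 ± 0.335 CPM. *Lrp1*, the receptor of haem-loaded hemopexin, and *Scarb1*, the high-density lipoprotein receptor, were rhythmic in both genotypes with peaks between ZT4.6 and ZT6.2.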

How the data were processed

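Poly-A RNA of 36 mouse livers was sequenced from non-directional libraries, 1 per mouse. Reads were aligned by the authors with HISAT2 to GRCm38 and counted per gene with featureCounts (versions not given in the sources used here). The deposited values are raw read counts per gene. The 10 members and all gene lists were chosen with earlier results of these data known. Genes holding 100 counts or more over all libraries were kept (17994 of 54532), scaled by TMM and tested with the quasi-likelihood test of edgeR 4.0.16 (R 4.3.3, limma 3.58.1), with genotype and sampling time as factors, their interaction, or sine and cosine terms of 24 h within each genotype. P-values were adjusted by Benjamini-Hochberg, with a threshold of 0.05. DESeq2 1.42.0 was an alternative. The scripts were tested on simulated data. Log2 CPM used a prior count of 2. Correlations used deviations from the means of the 12 groups, with NumPy 2.4.6 and SciPy 1.17.1. Beyond the members, genes were named by rule. From each list these were the genes past the genotype or interaction test and the 3 with the smallest p in the genotype and rhythm tests, and for likeness the 3 genes of highest r with each member. Totals of 29063273 to 42530551 counts per library set the precision, and intervals from 3 counts cover counting error only. Promoter letters came from RefSeq (GRCm38.p6), aligned with Biopython 1.88. The alternatives left out each letter or mouse, changed filter, scaling or tool, pooled the sampling times, or added the letter as a replicate block. Letter was first tested after the values were seen. The sample descriptions carry a running number, and what it counts is not stated.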

Additional observations from a re-analysis of the deposited data

How the results depend on the processing

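For the genotype effect, no member passed under any alternative that gave it an adjusted p (the DESeq2 likelihood ratio test gave none for *Saa3*), while the number of all genes past the threshold (171) was 306 with the DESeq2 likelihood ratio test, 65 with sampling times pooled, between 40 and 81 with 1 letter left out, and between 133 and 236 with 1 mouse left out. The difference of *Hpx*, near 0, changed sign without letter a or b (0.0055 and 0.0080) and without 5 single mice (0.0020 to 0.012), within a range of -0.063 to 0.012 over all samples left out. That of *Saa2* changed sign without THRBWT ZT2a (0.099) or ZT18b (0.022), within a range of -0.32 to 0.099. The samples share letters across groups. With letter as a replicate block, 387 genes passed for genotype and 0 for the interaction, and no member. With letter as a further factor added to all 36 libraries, a choice made after seeing the data, 275 passed. Of 18 pairs of same-lettered mice, 9 had correlated deviations above 0.1 (range -0.038 to 0.22), and 15 correlated best with their own letter. The rule that every pair exceed 0.1 was not met, so letter stayed out of the main model. Even so, 15 of 18 pairs correlated best with their own letter, where letters without meaning would give a minority. These values point to structure shared by letter across the genotypes. The main fits and the permutation p over 36 mice take no account of that structure. Their p-values hold only if the mice are independent. Leaving out 1 letter or 1 mouse gave between 3109 and 5861 rhythmic genes in THRBWT livers, with 0 to 2 members, and between 2343 and 5129 in THRBKO livers, with 0 members without letter b. The letter effect (933 genes, 4 members) had 1542 genes with DESeq2, 0 genes and 0 members in each genotype alone, and 401, 447, 235, 297 and 178 genes without ZT2, ZT10, ZT14, ZT18 and ZT22, with 2 members without ZT2, ZT10 or ZT14. *Saa3* changed sign there in THRBKO mice alone (-0.13) and without ZT18 (-0.26). Of the pairs of members, 14 passed in THRBWT and 7 in THRBKO mice alone, 6 without letter a, 9 without letter c, 11 after removal of the letter means and 15 to 24 with 1 mouse left out. Fewer samples entered each fit that left mice out. For the other moves the cause was not tested. Depth limits *Orm3* and *Lcn2* most, whose smallest counts were 18 and 31.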
